A study of Homo sapiens with 5 samples.

Results

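The genes described here are HMOX1, the inducible heme oxygenase, and 9 genes of the KEAP1-NRF2 antioxidant system: NQO1, GCLM, GCLC, SRXN1, TXNRD1, SLC7A11, NFE2L2 (which encodes NRF2), KEAP1 and BACH1. They were taken by gene symbol, and all 10 were found among the 19716 genes that had a read in at least 1 library. HMOX1 was selected because of its level in the dCas9 libraries relative to the pUC19 control, and the other 9 because they belong to the pathway known to control it. Values of that contrast are therefore given as a description of the 10 genes, without a test.

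HEK293T, a line from human embryonic kidney with the SV40 large T antigen, was transfected with 1 ug of plasmid, and RNA was collected after 48 h. In 4 groups the cells were given 5 sgRNAs for the uPA (PLAU) promoter and a plasmid with the PGK promoter. It drives nuclease-dead Cas9 joined to blue fluorescent protein (BFP) and to 1 of 4 partners. These are the catalytic domain of DNMT1, of DNMT3A or of DNMT3B, or EGFP, which is not a methyltransferase. Each is named here as dCas9-BFP followed by its partner, or by the partner alone. In the paper, methylation of the uPA promoter rose with the DNMT3A and DNMT3B fusions but not with those of DNMT1 or EGFP. The control group received pUC19, which encodes neither dCas9 nor a sgRNA. The labels describe sorting of BFP-positive cells for every group, but pUC19 does not carry BFP, and how the control cells were sorted is not clear. The dCas9 fusion, the sgRNAs and any difference in sorting cannot be told apart in a comparison with pUC19. Each group had 1 library, with about 26250000 to 36140000 reads assigned to genes, so differences from the control have no replicate check. The 7 HEK293T markers examined each reached at least 1 TPM (reads per gene length, scaled to a fixed sum in each library) in every library. In bulk RNA, a change in the share of cells that express a gene and a change in RNA per cell cannot be told apart.

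NRF2 is a transcription factor that is bound by KEAP1 and handed to the CUL3-RBX1 ubiquitin ligase in unstressed cells. Oxidants and electrophiles modify KEAP1, NRF2 is then no longer degraded, and it pairs with a small MAF protein (MAFF, MAFG or MAFK) on antioxidant response elements (AREs). BACH1 pairs with the same MAF proteins, represses the same elements and is released by heme, and HMOX1 is its best known target. NRF2 itself is controlled largely at the level of protein stability, which RNA sequencing does not measure.

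Letters of an ARE were looked for in RefSeq promoters (GRCh38.p14, a different build from that of the deposited files), taken as 250 bases before to 50 bases after each gene start. NQO1, GCLM, GCLC, SRXN1, TXNRD1, NFE2L2, KEAP1 and BACH1 matched by symbol, with 13 promoters in all. HMOX1 and SLC7A11 have no entry in that table. The pattern TGACNNNGC, read on both strands, was in 4 of the 13 promoters, those of GCLM, KEAP1 and TXNRD1 (the last at 2 starts), and in 13.3% of all 35116 promoters. The longer pattern GCTGAGTCA, whose opposite strand is itself a match to TGACNNNGC, was in 0 of the 13 and in 0.561% of all promoters. The looser TGANNNNGC, which contains TGACNNNGC, was in 7 of the 13, from 6 genes, and in 41.8% of all promoters. The 30 bases around each match to TGACNNNGC are shown because these are the letters that NRF2 and BACH1 share. Capitals mark the match, and where it lies on the opposite strand the capitals read GCNNNGTCA.
GCLM, chr1:93909445-93909474, minus strand: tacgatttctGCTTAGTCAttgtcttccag
KEAP1 upstream match, chr19:10502806-10502835, minus strand: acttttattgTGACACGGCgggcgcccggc
KEAP1 downstream match, chr19:10502783-10502812, minus strand: gcccggctctGCTTAGTCAtggtgacctgc
TXNRD1 upstream start, chr12:104215670-104215699, plus strand: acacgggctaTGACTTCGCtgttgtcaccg
TXNRD1 upstream start, second match, chr12:104215761-104215790, plus strand: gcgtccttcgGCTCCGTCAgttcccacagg
TXNRD1 downstream start, chr12:104286920-104286949, plus strand: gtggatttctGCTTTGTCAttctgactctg
GCLM and the downstream match of KEAP1 carried the same letters, GCTTAGTCA, which began 34 bases before the start in GCLM and 31 bases before it in KEAP1. A match of letters is a description of the sequence and does not show that a factor was bound. Sequence outside these promoters was not searched, so a gene without a match here is not shown to lack an ARE.

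HMOX1, which breaks heme down to biliverdin, carbon monoxide and iron, had 58.5 TPM in pUC19. It had 361.8 TPM with dCas9-BFP-DNMT1, 400.8 TPM with dCas9-BFP-EGFP, 734.1 TPM with dCas9-BFP-DNMT3A and 1155.5 TPM with dCas9-BFP-DNMT3B. Every dCas9 library was above the control, and the libraries with a DNMT3 domain were above the other two. These levels rest on 7195, 7269, 15020 and 20900 reads, against 1498 reads in pUC19. By level, HMOX1 ranked 3160 among the genes of the pUC19 library and 95 in the DNMT3B fusion library. HMOX1 (NCBI gene 3162) is a plus-strand gene of chromosome 22 (35776354 to 35790207 in the GENCODE annotation of GRCh37).

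Compared to the pUC19 control, HMOX1 was 6.18-fold higher in the DNMT1 fusion library, with a 95% counting interval of 5.85 to 6.54 (exact conditional binomial; all intervals of this kind cover the sampling of reads alone). The EGFP fusion library was 6.84-fold higher (6.48 to 7.25). The ratios were 12.5 (11.9 to 13.2) for DNMT3A and 19.7 (18.7 to 20.8) for DNMT3B. The lowest of the 4 log2 ratios of HMOX1, 2.63, was the second highest such value among the 13921 genes with a mean of at least 1 TPM. HMOX1 was selected on this contrast, so its rank follows from that choice. KEAP1 came next among the 10 genes by the same measure, with a lowest log2 ratio of 0.58 and rank 420, and BACH1 came last with -0.48.

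**Figure D1:**
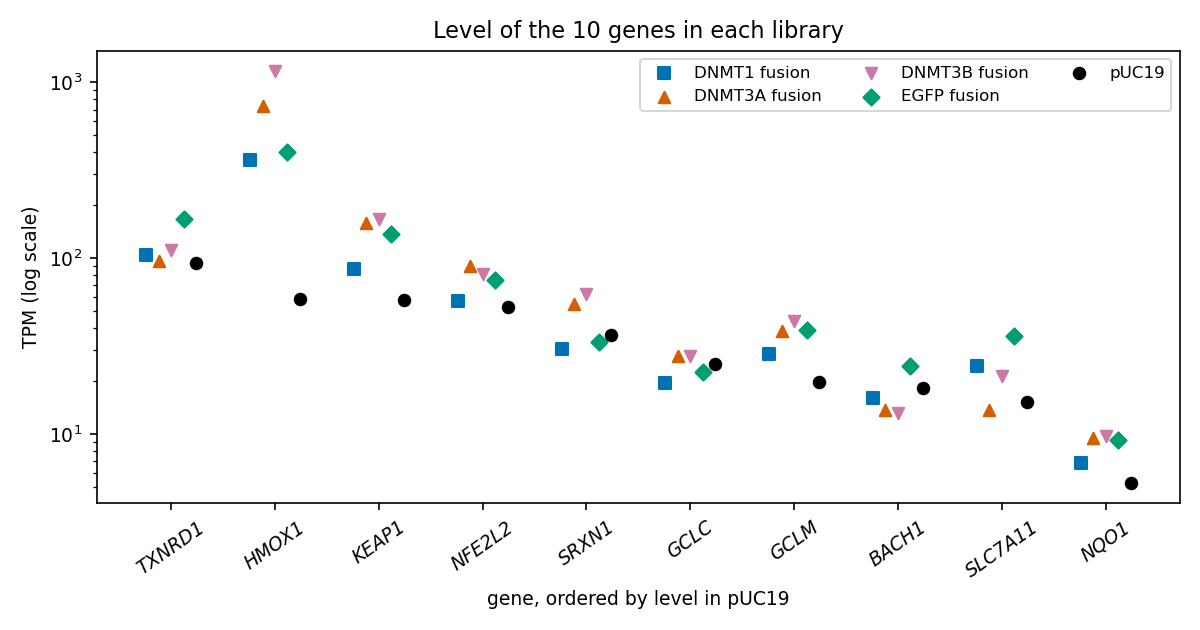
TPM on a log axis for the 10 genes, ordered by their level in pUC19, with 1 point per library (1 library per group, no error). HMOX1 has 58.5 TPM in pUC19 and at least 361.8 TPM in each dCas9 library, while the points of GCLC and SRXN1 lie on both sides of the control.

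HMOX1 was the 1 gene of the 10 that was at least 2-fold higher in all 4 dCas9 libraries, which held for 0.812% of all 13921 genes. Counting each dCas9 library on its own, at least 2-fold higher levels were found for 1 of the 10 with DNMT1 (2.08% of all genes), for 2 with DNMT3A (5.88%), for 3 with DNMT3B (6.16%) and for 3 with EGFP (3.58%). None of the 10 was at least 2-fold lower in any library, where the shares of all genes were 4.88%, 6.11%, 5.38% and 4.13% in the same order, and 1.52% for all 4 libraries together. HMOX1, KEAP1, GCLM, NQO1, NFE2L2 and TXNRD1 were above pUC19 by any amount in every dCas9 library, 6 of 10 against 23.7% of all genes. Because HMOX1 was selected on this contrast, nothing is read from these counts. The median log2 ratio of the 9 genes other than HMOX1 was 0.15, 0.59, 0.63 and 0.79 with DNMT1, DNMT3A, DNMT3B and EGFP, and the medians of all genes were -0.14, -0.02, -0.01 and -0.00345. The DNMT1 fusion library as a whole therefore lay slightly below the control on this scale, and its ratios are relative to that shift.

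Among the sensors and factors of the pathway, KEAP1, the adaptor that holds NRF2 for degradation, had 58.0 TPM in pUC19. With DNMT1 it reached 86.8 TPM, with EGFP 137.2 TPM, and with DNMT3A and DNMT3B 158.9 and 166.5 TPM. Its ratio to the control was smallest with DNMT1 (counting interval 1.42 to 1.58) and largest with DNMT3B at 2.87 (2.73 to 3.02), so KEAP1 had, after HMOX1, the highest median ratio of the 10. NFE2L2 had 52.8 TPM in pUC19 and 56.8, 90.4, 81.6 and 75.0 TPM with DNMT1, DNMT3A, DNMT3B and EGFP. The dCas9 libraries were all above the control in NFE2L2, from 1.08-fold (1.01 to 1.14) with DNMT1 to 1.71-fold (1.62 to 1.81) with DNMT3A. BACH1, the repressor, had 18.4 TPM in pUC19 and 16.1, 13.7, 13.1 and 24.3 TPM in the same order. BACH1 was thus below the control in 3 dCas9 libraries and 1.32-fold above it (1.23 to 1.42) with EGFP.

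Glutathione is made by glutamate-cysteine ligase, of which GCLC is the catalytic and GCLM the modifier subunit, from cysteine that is taken up as cystine through SLC7A11. GCLM had 19.8 TPM in pUC19 and 28.5, 38.3, 43.8 and 38.9 TPM with DNMT1, DNMT3A, DNMT3B and EGFP. All dCas9 libraries were above the control, by 1.44-fold (1.32 to 1.57) with DNMT1 and up to 2.21-fold (2.04 to 2.40) with DNMT3B. GCLC had 25.0 TPM in pUC19 and 19.6, 27.6, 27.7 and 22.6 TPM, on both sides of the control. Both subunits are commonly described as NRF2 targets, but only GCLM was above the control in all 4 dCas9 libraries. SLC7A11 had 15.1 TPM in pUC19 and 24.3, 13.7, 21.4 and 36.1 TPM. Its highest ratio, 2.38 (2.27 to 2.51), was in the EGFP fusion library, and with DNMT3A it was 0.903 (0.847 to 0.961).

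NQO1 reduces quinones and is widely used as a readout of NRF2. It had 5.30 TPM in pUC19 and 6.86, 9.48, 9.76 and 9.26 TPM with DNMT1, DNMT3A, DNMT3B and EGFP. NQO1 was the lowest of the 10 in each library and rested on 220 to 314 reads, so its ratios, 1.29 (1.07 to 1.57) with DNMT1 and up to 1.83 (1.54 to 2.20) with DNMT3B, are the least precise. TXNRD1, a thioredoxin reductase, had 93.9 TPM in pUC19 and 103.8, 97.0, 110.9 and 167.1 TPM. It was 1.78-fold higher (1.72 to 1.84) with EGFP, whereas the ratio of 1.03 with DNMT3A had an interval, 0.996 to 1.07, that contains no change. SRXN1, which repairs oxidised peroxiredoxins, had 36.6 TPM in pUC19 and 30.5, 55.1, 62.4 and 33.3 TPM. SRXN1 was above the control with DNMT3A and DNMT3B and below it with DNMT1 and EGFP.

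The genes were then compared with each other inside each library, where the total of the library cancels. These pairs were chosen after the values had been seen. GCLM had 0.793 times the TPM of GCLC in pUC19 (95% counting interval 0.731 to 0.860) and more TPM than GCLC in every dCas9 library, with ratios of 1.45, 1.39, 1.58 and 1.72 for DNMT1, DNMT3A, DNMT3B and EGFP. KEAP1 had 1.10 times the TPM of NFE2L2 in pUC19 (1.04 to 1.16) and 1.53, 1.76, 2.04 and 1.83 times in the same order. The transcript of the inhibitor thus exceeded that of the factor by more in each dCas9 library than in the control. KEAP1 and NFE2L2 transcripts have 60.2% and 40.1% GC, and such ratios do not cancel a GC effect that differs between libraries. Over the 4 fusions against pUC19, the log2 fold changes of KEAP1, NFE2L2 and BACH1 were 1.29, 0.57 and -0.08. With the GC and length correction they were 1.23, 0.78 and 0.12, so KEAP1 and NFE2L2 lay closer together. HMOX1 had 0.755 times the TPM of HMOX2, the constitutive heme oxygenase, in pUC19 and 6.51, 12.9, 20.5 and 6.60 times in the dCas9 libraries. HMOX2 itself was 0.718 to 0.784 times its level in the control. BACH1 had 0.348 times the TPM of NFE2L2 in pUC19 and 0.282, 0.151, 0.161 and 0.323 times in the dCas9 libraries, with the lowest ratios under the DNMT3 domains.

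**Figure D2:**
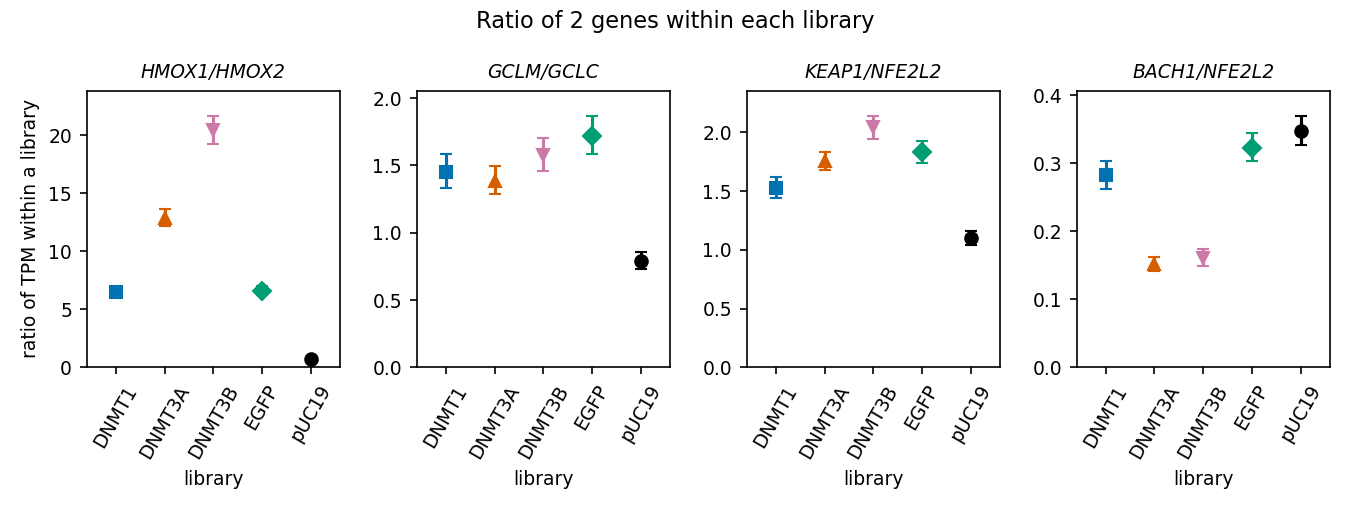
Ratio of the TPM of 2 genes within each library, with 95% counting intervals and each axis starting at 0. HMOX1/HMOX2, GCLM/GCLC and KEAP1/NFE2L2 are lowest in pUC19, at 0.755, 0.793 and 1.10, and BACH1/NFE2L2 is lowest with DNMT3A and DNMT3B, at 0.151 and 0.161.

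Whether the 10 genes differ between fusions was addressed by comparing the DNMT3A and DNMT3B libraries, which carry a de novo methyltransferase domain, with the DNMT1 and EGFP libraries. This contrast leaves out pUC19 and was not the reason for selecting HMOX1, although its level in every library was known by then. All 4 libraries share the sgRNAs, the dCas9-BFP part and, per the labels, the sort. The 2 libraries on a side are different constructs and not replicates of one, so the p-values measure differences against the spread between constructs. HMOX1 was higher with the DNMT3 domains, with a log2 fold change of 1.25 ± 0.19 (SE) and an adjusted p of 0.00729 (edgeR quasi-likelihood test with Benjamini-Hochberg adjustment over 15332 genes). SRXN1 was also higher, by 0.83 ± 0.14 (adjusted p = 0.00888). SLC7A11 and BACH1 were lower, with log2 fold changes of -0.83 ± 0.21 (adjusted p = 0.0376) and -0.63 ± 0.17 (adjusted p = 0.0454). Thus 2 of the 10 genes passed as higher and 2 as lower, while 6.9% of all genes tested passed as higher and 4.15% as lower. Without the DNMT3B library HMOX1, SRXN1, SLC7A11 and BACH1 missed the threshold, with log2 fold changes of 0.90, 0.74, -1.18 and -0.59. Without DNMT3A, SRXN1 (0.91), SLC7A11 (-0.54) and BACH1 (-0.67) missed it too, as did BACH1 without EGFP (-0.38). Each of these fits leaves 1 library on a side.

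The other 6 genes did not pass. KEAP1 had a log2 fold change of 0.50 ± 0.17 (adjusted p = 0.0841), and it passed with DESeq2 (adjusted p = 0.0359). Without the EGFP fusion library, which leaves 1 library on that side, its log2 fold change was 0.79. GCLC (0.34), NFE2L2 (0.34), GCLM (0.24), NQO1 (0.21) and TXNRD1 (-0.42) had adjusted p-values from 0.130 to 0.510. The log2 fold changes of GCLM and NFE2L2 were 0.40 and 0.48 without the EGFP library. That of TXNRD1 was -0.67 without the DNMT1 library. With 1 library left on a side, no call is read from these fits. Within a side, HMOX1 with DNMT3B was 1.57 times its level with DNMT3A (counting interval 1.54 to 1.61), and with EGFP 1.11 times its level with DNMT1 (1.07 to 1.14). The second difference exceeds the sampling of reads but is smaller than the common coefficient of variation of the fit, 0.135, so the order of the DNMT1 and EGFP libraries is not resolved. On the same side, BACH1 and SLC7A11 were 1.51 and 1.48 times as high with EGFP as with DNMT1. Transcripts of HMOX1 and KEAP1 have a GC content of 57.7% and 60.2%, those of SLC7A11 and BACH1 of 35.4% and 38.6%, and the median gene of 49.0%. With a correction for GC content and length the calls of HMOX1, SRXN1, SLC7A11 and BACH1 held, and the KEAP1 value was 0.34.

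**Figure D3:**
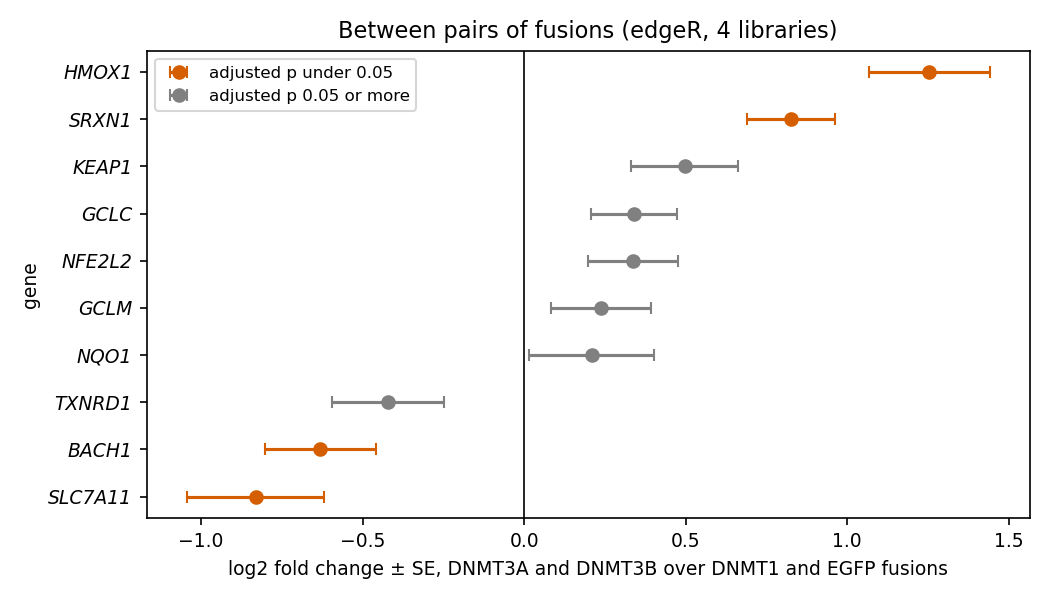
Log2 fold change (± SE from edgeR, 4 libraries) of the DNMT3A and DNMT3B fusions over the DNMT1 and EGFP fusions for the 10 genes. HMOX1 (1.25) and SRXN1 (0.83) lie to the right and SLC7A11 (-0.83) and BACH1 (-0.63) to the left with an adjusted p under 0.05.

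To see how far HMOX1 moved with the rest of the pathway, 5 lists of further genes were examined: NRF2 regulators, glutathione and thioredoxin enzymes, NADPH supply, detoxification, and heme and iron. In the fit of all 4 fusions against pUC19, 1 of the 55 genes tested passed as higher and 0 as lower (edgeR, adjusted p under 0.05), against 0.0937% and 0.644% of all 16001 genes. This fit pools 4 different constructs and assumes that the lone pUC19 library varies as they do, so its p-values are no replicate check of the control. Differences between the constructs add to its spread, and HMOX1 itself, at a log2 fold change of 3.54, would not pass in it. A gene or list that did not pass in this fit, here or below, is therefore not shown to be unchanged. At an unadjusted p under 0.05 the counts were 8 higher and 7 lower. No share of all genes was computed for unadjusted counts, here or below, so nothing is read from them. With DESeq2 at the adjusted threshold, 4 of 54 were higher (MAFG, MAFK, NFE2L1 and OSGIN1) and 1 lower (FLVCR1). Of all 19716 genes, DESeq2 passed 517 as higher and 460 as lower. The gene that passed with edgeR was MAFG, a small MAF partner of NRF2 and BACH1. It had 16.5 TPM in pUC19 and 32.7, 44.4, 49.7 and 40.7 TPM with DNMT1, DNMT3A, DNMT3B and EGFP. Its log2 fold change was 1.39 (adjusted p = 0.0470), and it missed the threshold without DNMT3A (0.0644), DNMT3B (0.0547) or EGFP (0.0654), with log2 fold changes of 1.30 to 1.42. As a median, the log2 fold change was -0.10 over the 55 genes and 0.03 over all genes.

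The lists had different medians. Among the 12 NRF2 regulators, at least 2-fold higher levels were seen for 2 with DNMT3A, 2 with DNMT3B and 1 with EGFP (5.88%, 6.16% and 3.58% of all genes), and their median log2 ratio was 0.44, 0.51 and 0.24 in these libraries and -0.12 with DNMT1. MAFK, the other small MAF gene that stood out, had 8.27 TPM in pUC19 and 13.9, 35.2, 28.4 and 16.5 TPM. It was higher in the DNMT3 libraries than in the DNMT1 and EGFP libraries (log2 fold change 1.02 ± 0.16, adjusted p = 0.0075), and without DNMT3A the value was 0.85 and missed the threshold (adjusted p = 0.153). Of the 14 glutathione and thioredoxin genes with at least 1 TPM, those above pUC19 numbered 3, 1, 2 and 3 for DNMT1, DNMT3A, DNMT3B and EGFP, against 5212, 6788, 6824 and 6916 of all 13921 genes. The medians of this list were -0.17, -0.25, -0.24 and -0.22, beside -0.14, -0.02, -0.01 and -0.00345 for all genes, so with DNMT1 the list lay near the median of all genes. The 6 NADPH supply genes had medians from -0.56 to -0.29, and none of them was at least 2-fold higher in any library.

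In the comparison between fusions, 6 of 54 genes of these lists were lower with the DNMT3 domains and 1, MAFK, was higher, against 4.15% and 6.9% of all genes. The lower genes included GLRX, a glutaredoxin (log2 fold change -1.19 ± 0.22), and IDH1, a cytosolic NADP-dependent dehydrogenase (-1.06 ± 0.14). FECH, which inserts iron into protoporphyrin to form heme, had -0.83 ± 0.13, and TXNRD2, the mitochondrial thioredoxin reductase, -0.64 ± 0.13. The transferrin receptor TFRC (-0.61 ± 0.15) and UGDH (-0.61 ± 0.15) were the others. Against pUC19, GLRX, IDH1 and UGDH were below the control in every dCas9 library. FECH and TFRC lay on both sides of it, and TXNRD2 was 1.30 to 2.14 times the control. Without the DNMT3A or the DNMT3B library none of these 6 passed. Without the DNMT1 library 8 genes of the lists were lower and 5 higher (1541 and 1995 of all 15720 genes), and without the EGFP library 17 and 7 (1623 and 2227 of 15603). Of the detoxification genes, 8 of 14 reached a mean of 1 TPM, of which 3, 4, 3 and 3 were above pUC19 with DNMT1, DNMT3A, DNMT3B and EGFP, and their medians were -0.02, -0.01, -0.17 and -0.10. OSGIN1, a known NRF2 target named here after its values were seen, had 0.737 TPM in pUC19 and 1.44, 3.09, 4.08 and 2.85 TPM with DNMT1, DNMT3A, DNMT3B and EGFP, on 23 to 90 reads. The ferritin chain FTL, also named afterwards, was 1.07 to 1.48 times the control, and the 13 heme and iron genes had medians from -0.06 to 0.20. Above pUC19 in all 4 dCas9 libraries were 4 of these 13 (FTL, FTH1, BLVRB and SLC48A1). The same held for 3 of the 8 detoxification genes (OSGIN1, PIR and NQO2) and for 23.7% of all genes.

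**Figure D4:**
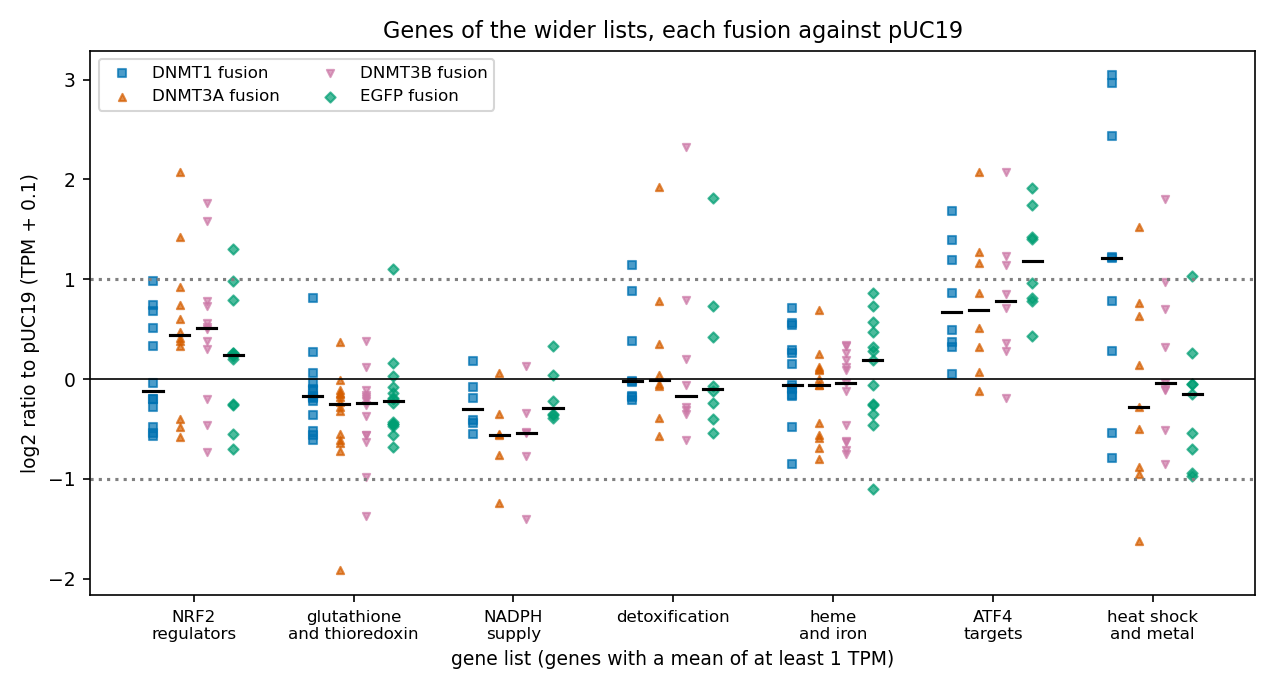
Log2 ratio of TPM + 0.1 to pUC19 for the genes of 7 lists with a mean of at least 1 TPM, 1 point per gene and dCas9 library, with black bars for medians and dotted lines at 2-fold. The glutathione and NADPH lists have medians below 0 in every library, the ATF4 targets have medians from 0.68 to 1.18, and the heat shock genes stand out with DNMT1.

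HMOX1 and SLC7A11 are also reached by stress pathways other than NRF2, so targets of ATF4 and genes of the heat shock and metal responses were measured in the same libraries. Their part in the HMOX1 level was not tested. ATF4 encodes the transcription factor of the integrated stress response. The 8 ATF4-list genes had median log2 ratios to pUC19 of 0.68, 0.69, 0.78 and 1.18 with DNMT1, DNMT3A, DNMT3B and EGFP. The medians of all genes were -0.14, -0.02, -0.01 and -0.00345. TRIB3, a pseudokinase gene induced by ATF4, was at least 2-fold higher in all 4 (3.21, 2.41, 2.34 and 2.69). This held for 1 of the 8 genes and for 0.812% of all genes. In the fit against pUC19, 0 of the 8 passed with edgeR, 5 had an unadjusted p under 0.05, and 5 passed as higher with DESeq2, which passed 517 of all 19716 genes as higher. TRIB3 passed with edgeR without a filter, without DNMT1 and without DNMT3B. Between fusions, ASNS (-0.94 ± 0.14), DDIT3 (-0.93 ± 0.17) and CHAC1 (-0.85 ± 0.18) were lower with the DNMT3 domains and SESN2 (0.87 ± 0.15) and ATF3 (0.51 ± 0.13) were higher, with adjusted p-values from 0.00747 to 0.0372 (3 lower and 2 higher of 8, against 4.15% and 6.9% of all genes). None of the 5 passed without DNMT3A or without DNMT3B.

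The heat shock genes set the DNMT1 fusion library apart. DNAJB1, a co-chaperone of HSP70, was at least 2-fold higher in all 4 dCas9 libraries, by 5.41, 2.87, 3.48 and 2.04 times. This held for 1 of 9 genes of the heat shock and metal list and for 0.812% of all genes. HSPA1A and HSPA1B, near-identical copies whose split of unique reads is uncertain, were 8.23 and 7.79 times the control with DNMT1 and between 0.516 and 0.972 times with the other 3. HMOX1 had 361.8 TPM in the DNMT1 fusion library and 400.8 TPM with EGFP, levels not resolved from each other. A link between HMOX1 and the heat shock genes was not tested. With edgeR 0 of 9 genes of the list passed in either fit, with 2 at an unadjusted p under 0.05 in each, and with DESeq2 1 and 0 passed. Between fusions the result turned on single libraries. Without DNMT1, BAG3, DNAJB1 and HSPH1 were higher with the DNMT3 domains. Without EGFP, DNAJB1, HSPA1A, HSPA1B, HSPB1 and HSPH1 were lower. Each of these fits leaves 1 library on a side, so only the directions are given. With the GC and length correction 1 gene, HSPA1A, passed as lower. Of the metallothioneins, MT1X and MT2A were below the control in every dCas9 library, and like HSPA1A and HSPA1B they are named after their values were seen. MT1F, on 20 to 55 reads, was 1.21 times the control with DNMT1. With DNMT3A, DNMT3B and EGFP it was 0.822, 0.928 and 0.520 times the control. The 8 macrophage and blood markers summed to 5.64 to 8.37 TPM and the 3 hepatocyte markers to 0.797 to 1.85 TPM, and none of either list passed in a fit (edgeR; at an unadjusted p under 0.05 there were 0 and 1, and DESeq2 passed 0 of those it tested). Of the 7 HEK293T markers, NEFM and NEFL, which encode neurofilament chains, were at least 2-fold lower in all 4 dCas9 libraries (1.52% of all genes). Their log2 fold changes in the fit against pUC19 were -1.88 and -1.49. Without the DNMT1 library the NEFM value was -1.89. The control side of this fit is 1 library, so these 2 values have no replicate check.

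Among the 13921 genes with a mean of at least 1 TPM, the 5 whose 4 log2 ratios to pUC19 were closest to those of HMOX1 were C10orf62, IFNA22P, C1orf189, HMX3 and TEX19, with root mean square differences of 0.32 to 0.66 on the log2 scale over 4 libraries. All of them had less than 1 TPM in pUC19. The first 4 rested on 2 to 6 reads there, and TEX19 on 29 reads, where HMOX1 had 1498. None of the other 9 pathway genes was among the 5.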

How the data were processed

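The 10 genes and the gene lists were chosen with earlier results of these data known. Per the labels, poly(A) RNA from 5 groups of HEK293T cells was sequenced on an Ion Proton. The authors aligned reads to the RefSeq RNA set of hg19 using tmap and kept unique matches; the tmap version and RefSeq release are not given in the sources used here. The authors deposited whole-number counts per gene, TPM computed from those counts and gene lengths, and a coverage in percent of each transcript, which no result uses. Reads of the plasmids' catalytic domains add to the endogenous DNMT1, DNMT3A and DNMT3B values. Genes missing from a table were set to 0.

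Groups came from the sample titles. Ratios to pUC19 are of TPM + 0.1, which understates the change of low genes, with 95% exact conditional binomial intervals of the counts, which cover counting error only. Shares of all genes refer to a mean of at least 1 TPM. Counts were fitted with edgeR 4.0.16 in R 4.3.3 (TMM, filterByExpr, quasi-likelihood F-test, adjusted p under 0.05), for 4 fusions against pUC19 (genes outside the 10) and for the DNMT3A and DNMT3B libraries against those of DNMT1 and EGFP. The fits were tested on simulated data. Named genes were the 10, listed genes at least 2-fold in all 4 fusions or past a threshold (at most 3 per direction and list), and the 5 nearest HMOX1. Positions are from GENCODE 44 on GRCh37, promoters from RefSeq. Alternatives were a pseudocount of 1 TPM, TMM-scaled ratios, 1.5-fold, TPM without the DNMT rows, DESeq2 1.42.0, median-ratio size factors, no filter, a loess correction (span 0.3) for GC content and length (and the same genes without it, chosen after seeing the data), and leaving out each fusion.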

Additional observations from a re-analysis of the deposited data

Results flagged for a closer look

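The change from pUC19 could not be compared between fusions with replicates. By the edgeR test between fusions, 4 of the 10 genes separated libraries with a DNMT3 domain from those of DNMT1 and EGFP. Of all genes tested, 6.9% passed as higher and 4.15% as lower. HMOX1 was higher with the DNMT3 domains by 1.25 on the log2 scale and SRXN1 by 0.83, and SLC7A11 and BACH1 were lower, with -0.83 and -0.63. BACH1 with DNMT3A and DNMT3B was 0.853 and 0.819 times its level with DNMT1, and with EGFP 1.51 times. For SLC7A11 these values were 0.563, 0.881 and 1.48. A link between these genes and HMOX1 or SRXN1 was not tested. Without the DNMT3B library HMOX1, SRXN1, SLC7A11 and BACH1 missed the threshold, with log2 fold changes of 0.90, 0.74, -1.18 and -0.59. Without DNMT3A, SRXN1 (0.91), SLC7A11 (-0.54) and BACH1 (-0.67) missed it, and without EGFP BACH1 did (-0.38). Each of these fits leaves 1 library on a side, so a miss there says little about a single gene.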

How the results depend on the processing

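Of 120 ratios to pUC19 recomputed with a pseudocount of 1 TPM, TMM scaling or TPM without the DNMT rows, 8 moved beyond the counting interval, none changed the sign of a 2-fold call, and the largest shift was 0.13; for HMOX1 with DNMT1, TMM gave 2.76. At 1.5-fold, the 10 genes counted as higher were 2 with DNMT1 and 6 each with DNMT3A, DNMT3B and EGFP. Against pUC19, 15 genes were higher and 103 lower in all; DESeq2 gave 517 and 460, no filter 65 and 187, the GC and length correction 41 higher, and the same genes without it 9 higher. Leaving out a fusion gave 8 to 28 higher and 57 to 77 lower. Between fusions, 1058 were higher and 636 lower, with 344 lower without a filter, and leaving out a library gave 17 to 2227 higher and 1 to 1623 lower. The HMOX1 log2 fold change between fusions was 0.90 to 1.54 with a library left out, lowest without DNMT3B, and 1.22 to 1.27 otherwise. SLC7A11 and BACH1 also missed the threshold without a filter (adjusted p = 0.0708 and 0.0785). The looser ARE pattern was in 6 genes instead of 3. The cause of these shifts was not tested. No paired analysis was possible because each group has 1 library. NQO1, with the fewest reads, is the gene that depth limits most.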
